A study of Mus musculus with 9 samples.

Results

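The genes described are 7 that encode Toll-like receptors of the cell surface or proteins that help them bind ligand. They are Tlr1, Tlr2, Tlr4, Tlr6, Cd14, Ly96 and Cd180, chosen by symbol as a functional family from the 24411 gene rows of each count file. All 7 symbols were found and all 7 passed the filter on low counts, among 11002 genes tested. Levels were measured by RNA sequencing in primary microglia from whole brains of 3-day-old ICR mouse pups, which had been shaken off mixed glial cultures and plated for 24 h. One group was exposed to R848 (1 µM, 4 h), a synthetic imidazoquinoline that activates the endosomal receptor TLR7. The IFN-α group received 100 U/ml of the recombinant type I interferon for 4 h, and the R848+IFN-α group received both agents at those doses for 4 h. Each group had 3 libraries. Untreated cells are not analysed here, so every difference is between treatments and no level is relative to a resting state.

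Toll-like receptors are leucine-rich repeat proteins that recognise microbial molecules and signal through a cytoplasmic TIR domain. TLR2 works as a dimer with TLR1 or with TLR6, and the partner sets whether triacylated or diacylated lipopeptides are bound. TLR4 recognises lipopolysaccharide only together with MD-2, the product of Ly96, and CD14 is an anchored protein that hands lipopolysaccharide and lipopeptides to these complexes. CD180, also named RP105, resembles TLR4 but has no TIR domain, is held by MD-1 (the product of Ly86) and is known to modulate responses to lipopolysaccharide. In the brain these receptors are chiefly found on microglia.

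The 7 genes followed different orders over the 3 treatments. Cd14, Tlr2 and Tlr1 were high with R848, alone or with IFN-α, and low with IFN-α alone. Tlr4, Cd180 and Ly86 were highest with IFN-α alone. Tlr6 was highest with both agents, and Ly96 passed the test in none of the 3 comparisons (edgeR).

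Sequence bears on how well these genes can be counted, because Tlr1 and Tlr6 are neighbours on mouse chromosome 5 and close paralogs. In GENCODE release M21 on GRCm38, the assembly that mm10 names, Tlr1 lies at chr5:64924679-64933563 and Tlr6 at chr5:64952031-64960097, both on the minus strand. Of 2925 windows of 101 bases in the longest protein-coding transcript of Tlr1, 256 (8.75%) were identical to a window of Tlr6, and the same 256 made up 7.16% of the windows of Tlr6. Such windows are as long as 1 sequenced read, and a read pair that matches both genes equally well is left out of both counts as multi-mapping. None of the windows of Tlr2, Tlr4, Cd14, Ly96 or Cd180 occurred in a transcript of another gene. The longest identical stretch ran for 229 coding bases, at chr5:64925537-64925765 in Tlr1 and chr5:64953828-64954056 in Tlr6. It is shown once because both genes share it, and it holds only some of the 256 windows. The 60 coding bases that follow are given for each gene, with capitals at the 2 positions where they differ, at chr5:64925477-64925536 in Tlr1 and chr5:64953768-64953827 in Tlr6.
Tlr1 and Tlr6, shared: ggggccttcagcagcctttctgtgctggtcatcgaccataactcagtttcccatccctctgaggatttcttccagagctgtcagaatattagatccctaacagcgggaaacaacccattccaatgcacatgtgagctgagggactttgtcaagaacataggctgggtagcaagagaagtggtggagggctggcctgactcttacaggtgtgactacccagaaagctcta
Tlr1, next 60 bases: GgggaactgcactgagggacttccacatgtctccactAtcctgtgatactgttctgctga
Tlr6, next 60 bases: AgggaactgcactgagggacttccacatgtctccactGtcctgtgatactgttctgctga

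Promoter windows of 300 bases from RefSeq on GRCm38.p6, 250 before and 50 after a start site, were given for Tlr1, Tlr2, Tlr6 and Cd180, 4 of the 7 genes. They were searched on both strands for 5 motifs: the 10-letter NF-κB consensus, the interferon response core GAAANNGAA, the ETS-IRF composite GGAANNGAA, the AP-1 site TGANTCA and the PU.1 site GAGGAAG. Of 32817 promoter windows of that length, the NF-κB motif was in 8.46%, the interferon response core in 8.55%, the ETS-IRF composite in 8.25%, AP-1 in 7.81% and PU.1 in 13.6%. The window of Tlr2 held NF-κB matches at a pair of places, the overlapping matches at its upstream place being shown in capitals, at chr3:83841762-83841791 on the minus strand. A window of Tlr1 held a PU.1 match, shown at chr5:64933562-64933591, and a window of Tlr6 held overlapping interferon response core matches on the opposite strand, shown at chr5:64959262-64959291. That Tlr6 window lies within the annotated gene. The other window of Tlr1 and the other window of Tlr6 held none of the 5 motifs. The Cd180 windows held none of the 5 motifs, and the 250 bases before its first start site, at chr13:102693297-102693546 on the plus strand, are printed in full because this gene had the widest swing in favour of IFN-α. A match describes these letters only.
Tlr2: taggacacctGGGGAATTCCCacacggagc
Tlr1: ttaaatgttgGAGGAAGtaggagcttgaat
Tlr6: gactattcttTTCTCTTTCACTTTCtgttt
Cd180: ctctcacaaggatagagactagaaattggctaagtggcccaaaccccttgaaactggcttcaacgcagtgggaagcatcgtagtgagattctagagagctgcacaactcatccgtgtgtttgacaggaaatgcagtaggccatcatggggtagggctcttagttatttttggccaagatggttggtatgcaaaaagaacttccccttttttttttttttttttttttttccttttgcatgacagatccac

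Libraries held 2505941 to 6005578 gene counts, the R848+IFN-α replicate 3 being the deepest. All 10 microglia and macrophage markers listed had counts in every group, with summed levels of 2414 to 2513 CPM (a gene's count scaled to a common library size with TMM factors) with R848, 3595 to 3857 with IFN-α and 2478 to 2729 with both. All 11 astrocyte markers also had counts, with summed levels of 1459 to 1716, 1165 to 1469 and 2395 to 3443 CPM. These are RNA levels of the whole preparation, in which fewer cells of a type and less RNA per cell cannot be told apart. B cell markers, relevant because CD180 is also a B cell receptor, held 4, 5 and 7 counts over the libraries of each group, with Cd79a at 0 in all of them. TMM factors were 1.05 to 1.17 with R848 and 0.831 to 0.892 with both agents, so differences between those groups depended on the scaling more than the others did.

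R848 and IFN-α alone were compared first, and 5 of the 7 genes differed. Higher with R848 were 3 of 7 (Cd14, Tlr2 and Tlr1), and lower were 2 of 7 (Cd180 and Tlr4), where 18.4% and 19.0% of all genes tested were called higher and lower (edgeR quasi-likelihood F test, Benjamini-Hochberg adjusted p under 0.05 over all genes). The median log2 fold change of the 7 was 0.54, against 0.024 over all genes tested. Adding IFN-α to R848 left 4 of 7 with no call, raised 2 (Cd180 and Tlr6) and lowered 1 (Cd14), beside 19.2% and 16.7% of all genes called higher and lower. The median of the 7 was -0.10, against -0.033 over all genes. Adding R848 to IFN-α raised 4 of 7 (Cd14, Tlr2, Tlr1 and Tlr6) and lowered 2 (Cd180 and Tlr4), beside 18.5% and 14.7% of all genes, with medians of 0.58 and -0.0088. The 3 comparisons share libraries, so they are not independent of each other.

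**Figure D1:**
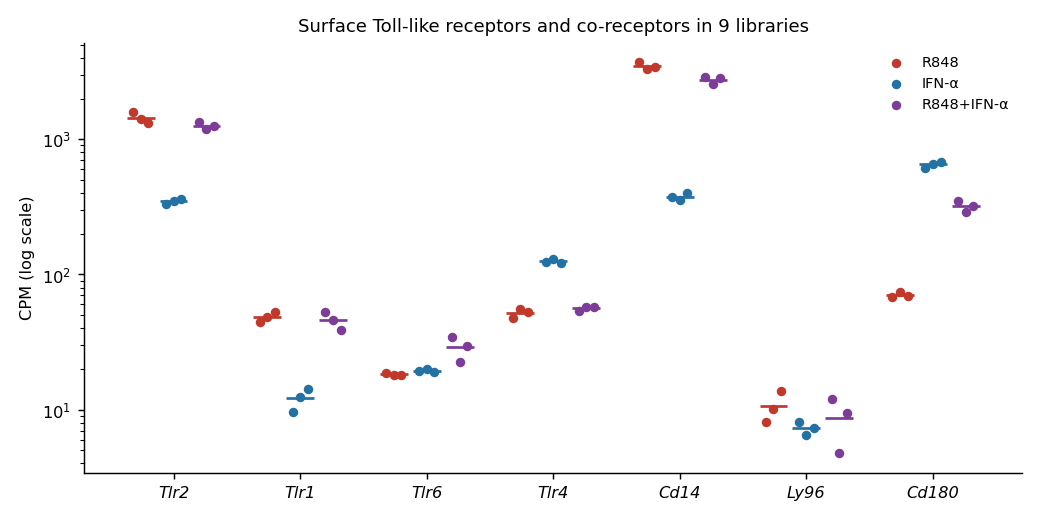
Levels of the 7 genes in CPM (vertical axis, log scale) in each of 9 libraries, coloured by treatment. Points are libraries and short lines are group means. Cd14, Tlr2 and Tlr1 sit low in the IFN-α libraries alone, Tlr4 and Cd180 sit highest there, and Cd180 takes 3 separate levels.

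TLR2 is the shared subunit of the lipopeptide receptors, and its gene lies at chr3:83836272-83841767. Tlr2 was at 1602, 1407 and 1319 CPM in R848 replicates 1, 2 and 3. In the IFN-α libraries it was at 333, 352 and 361 CPM, and in the libraries with both agents at 1338, 1189 and 1252 CPM. Every library that received R848 lay above every IFN-α library, and the R848 and combined groups overlapped. Tlr2 was 4.13-fold higher with R848 than with IFN-α (95% interval from the SE 3.67 to 4.66, log2 fold change 2.05 ± 0.088 SE, adjusted p = 2.28e-18). With both agents it was 3.61-fold higher than with IFN-α (1.85 ± 0.088, adjusted p = 5.41e-17). Against R848 alone the combined group was at -0.20 ± 0.083, which did not pass the test (adjusted p = 0.0682). That difference passed after scaling by upper quartiles (-0.33, adjusted p = 0.0017) or by library totals alone (-0.58, adjusted p = 0.000191), without R848 replicate 3 (-0.26, adjusted p = 0.0284) and without combined replicate 1 (-0.24, adjusted p = 0.0491).

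TLR1 is the partner that lets TLR2 bind triacylated lipopeptides. Tlr1 was far less abundant than Tlr2, at 44.6, 48.1 and 52.4 CPM with R848 and 9.68, 12.3 and 14.3 CPM with IFN-α. With both agents it was at 52.7, 45.8 and 38.6 CPM. Its pattern was that of Tlr2, with the R848 and combined libraries overlapping and all of them above the IFN-α libraries. Tlr1 was 3.95-fold higher with R848 than with IFN-α (1.98 ± 0.17, adjusted p = 6.39e-11) and 3.68-fold higher with both agents than with IFN-α (1.88 ± 0.18, adjusted p = 4.87e-10). The combined group differed from R848 by -0.10 ± 0.14 (95% interval -0.38 to 0.18, adjusted p = 0.621), a value that turned to 0.030 without combined replicate 3. With library totals alone it was -0.49 (adjusted p = 0.0116). The IFN-α group rests on 104 counts over 3 libraries.

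TLR6 is the partner for diacylated lipopeptides, and its gene moved differently from that of its paralog. Tlr6 was at 18.8, 18.03 and 18.1 CPM with R848 and at 19.4, 19.9 and 19.1 CPM with IFN-α. With both agents it was at 34.4, 22.5 and 29.8 CPM. The single-agent groups lay within 2 CPM of each other, and all 3 combined libraries lay above all 6 others. The difference between R848 and IFN-α was -0.087 ± 0.18 (95% interval -0.44 to 0.27, adjusted p = 0.757). The combined group was 1.59-fold above R848 (0.67 ± 0.17, adjusted p = 0.00218) and 1.496-fold above IFN-α (0.58 ± 0.17, adjusted p = 0.00876). Both calls ended with library totals alone (0.28, adjusted p = 0.201, and 0.27, adjusted p = 0.251), and the one against IFN-α ended without combined replicate 1 (0.46, adjusted p = 0.0628). The summed astrocyte markers given above were also highest in the combined group, and their part in the result was not tested.

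CD14 is the co-receptor of both the TLR4 and the TLR2 complexes, and its gene, at chr18:36725067-36726798 on the minus strand, was the most abundant of the 7 in every R848-treated library. Cd14 was at 3712, 3325 and 3406 CPM with R848, at 372, 355 and 400.4 CPM with IFN-α, and at 2899, 2543 and 2829 CPM with both agents. The 3 groups did not overlap, and the gap between IFN-α and the others was by far the wider. Cd14 was 9.27-fold higher with R848 than with IFN-α (95% interval 8.23 to 10.4, 3.21 ± 0.088, adjusted p = 2.55e-23). Adding R848 to IFN-α raised it 7.34-fold (2.88 ± 0.087, adjusted p = 5.79e-22). Adding IFN-α to R848 lowered it, with a log2 fold change of -0.34 ± 0.080 (adjusted p = 0.00121), a ratio of 0.792 to the level with R848. The size of that decrease depended on the scaling, at -0.47 after upper-quartile scaling and -0.72 with library totals alone.

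TLR4, the signalling chain of the lipopolysaccharide receptor, had the opposite order. Its gene, at chr4:66827584-66930284, was at 47.5, 55.4 and 52.7 CPM with R848 and at 124, 131 and 121 CPM with IFN-α. With both agents it was at 53.4, 57.4 and 57.7 CPM. All IFN-α libraries lay above all libraries with R848, and the combined libraries overlapped those with R848 alone. Tlr4 was 2.41-fold higher with IFN-α than with R848 (log2 fold change R848 relative to IFN-α -1.27 ± 0.11, adjusted p = 2.89e-11). Adding R848 to IFN-α lowered it 2.22-fold (-1.15 ± 0.11, adjusted p = 4.40e-10). IFN-α added to R848 gave a difference of 0.12 ± 0.11 (95% interval -0.10 to 0.34, adjusted p = 0.447), and its sign turned with upper-quartile factors (-0.014) and library totals (-0.28).

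MD-2, the small lipopolysaccharide-binding subunit of the TLR4 complex, is encoded by Ly96 at chr1:16688051-16709611. Ly96 had the fewest counts of the 7, with 28, 32 and 46 counts with R848, 21, 18 and 23 with IFN-α, and 32, 11 and 47 with both agents. In CPM these were 8.10, 10.1 and 13.6, then 8.13, 6.52 and 7.31, then 11.95, 4.75 and 9.45. The 3 groups overlapped, and the combined group spanned the widest range. R848 differed from IFN-α by 0.54 ± 0.28 (95% interval -0.022 to 1.09, adjusted p = 0.147). The combined group differed from R848 by -0.25 ± 0.27 (adjusted p = 0.513) and from IFN-α by 0.29 ± 0.29 (adjusted p = 0.488), a value that turned to -0.020 with library totals alone. With those totals the difference from R848 passed the test (-0.64, adjusted p = 0.043). The counts of a group summed to 62 to 106, so the intervals are wide and do not show that the levels were equal.

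CD180 had 3 distinct levels. Its gene, at chr13:102693558-102739629, was at 68.6, 74.7 and 69.3 CPM with R848 and at 613, 661 and 682 CPM with IFN-α. With both agents it was at 352, 289.8 and 322 CPM, and no library of any group overlapped those of another. Cd180 was 9.21-fold higher with IFN-α than with R848 (R848 relative to IFN-α -3.20 ± 0.099, adjusted p = 5.08e-22). Adding IFN-α to R848 raised it 4.54-fold (2.18 ± 0.098, adjusted p = 7.08e-18), and adding R848 to IFN-α lowered it 2.03-fold (-1.02 ± 0.088, adjusted p = 6.84e-11). The calls held under all 16 alternatives of each comparison, with ranges of -3.25 to -3.13, 1.79 to 2.25 and -1.33 to -0.95. The 3′ part of the annotated gene overlaps Mast4 on the other strand, and forward-strand counts for Cd180 came to 18 against 9478 on its own strand.

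Ly86, which encodes the MD-1 partner that CD180 needs at the surface, is not among the 7 but followed Cd180. It was at 68.0, 75.0 and 69.0 CPM with R848, at 390.3, 370.5 and 414 CPM with IFN-α, and at 164, 130.4 and 141 CPM with both agents. The groups did not overlap and stood in the same order as for Cd180. Its differences were -2.47 ± 0.10 for R848 relative to IFN-α, 1.04 ± 0.10 for IFN-α added to R848 and -1.43 ± 0.096 for R848 added to IFN-α (adjusted p at most 1.34e-09).

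**Figure D2:**
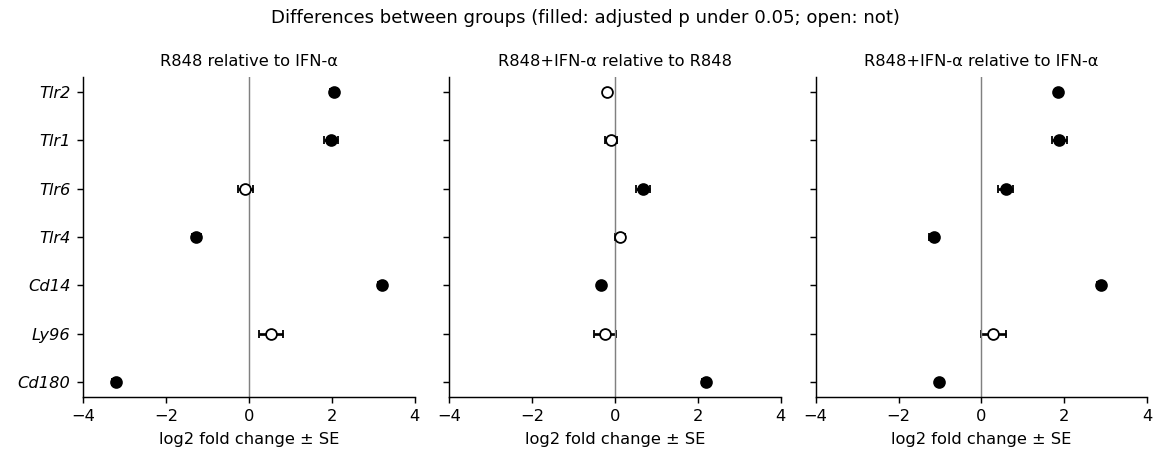
Log2 fold changes of the 7 genes (horizontal axis) with SE bars in the 3 comparisons. Filled points passed the adjusted p threshold of 0.05 and open points did not. The panels with IFN-α as the reference share the IFN-α libraries, and in them Cd180 lies at -3.20 with R848 and -1.02 with both agents, and Tlr6 at -0.087 and 0.58. Relative to R848 the combined group shows calls for Cd180, Tlr6 and Cd14.

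The scaling of libraries moved the comparison of both agents with R848 alone most. Upper-quartile factors moved the median log2 fold change of all genes by -0.13 and library totals alone by -0.39 in that comparison, and library totals moved it by -0.31 in the comparison with IFN-α. Of the genes called there, 53.5% were higher in the combined group with TMM factors, 37.5% after upper-quartile scaling and 19.1% with library totals. Against IFN-α the share was 55.7% with TMM factors, 44.8% after upper-quartile scaling and 21.7% with library totals. The rise of Cd180 and the decrease of Cd14 passed the test under all 4 scalings, and the calls of Tlr6, Tlr2, Tlr1 and Ly96 depended on the choice.

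**Figure D3:**
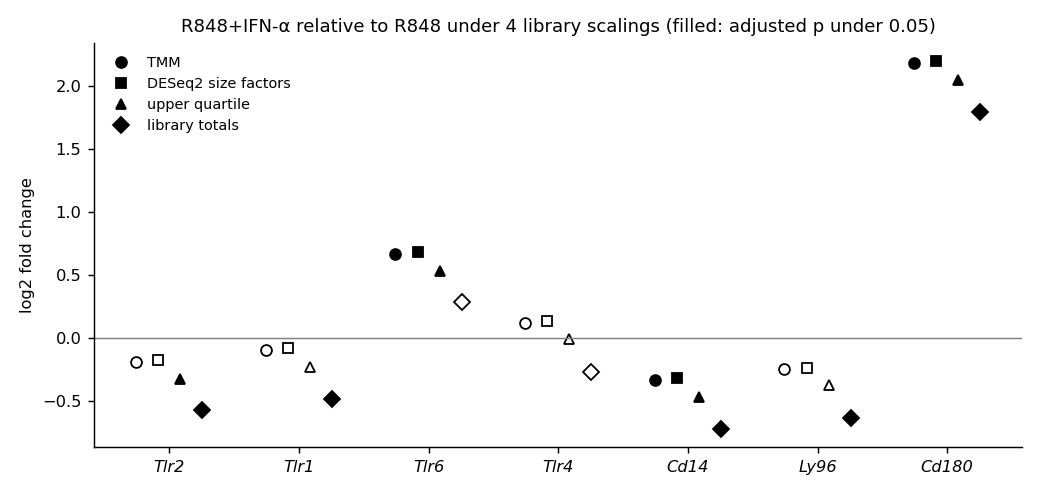
Log2 fold changes of the 7 genes in the combined group relative to R848 (vertical axis) under 4 ways of scaling the libraries, with filled symbols for adjusted p under 0.05. Cd180 stays near 2 and Cd14 stays below 0 throughout, while Tlr6 falls from 0.67 to 0.28 and Tlr4 crosses 0.

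Ratios between partner transcripts within a library do not depend on that scaling. Each of 6 ratios of counts per kilobase of transcript was compared between groups with an exact two-sided permutation test, for which 0.1 is the smallest p that 3 libraries against 3 allow, in 18 tests. Tlr2 exceeded Tlr1 by about the same ratio in all groups, 36.1, 29.4 and 25.3 with R848, 34.6, 28.7 and 25.3 with IFN-α, and 25.5, 26.1 and 32.6 with both agents. The ranges overlapped in all 3 comparisons, and the log2 differences were 0.030, -0.10 and -0.072 (exact permutation p = 0.8, 0.7 and 0.7).

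The ratio of Tlr2 to Tlr6 took separate ranges in the 3 groups. It was 104, 95.2 and 89.1 with R848, 21.0, 21.6 and 23.1 with IFN-α, and 47.5, 64.6 and 51.3 with both agents, with no overlap. Tlr1 exceeded Tlr6 by 2.88, 3.24 and 3.53 per kilobase with R848 and by 1.86, 2.48 and 1.58 with both agents. With IFN-α the same ratio was 0.608, 0.751 and 0.912, below 1 in every library. Each of these differences reached the smallest possible exact permutation p of 0.1 (0.129 after Benjamini-Hochberg adjustment over the 18 tests).

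The transcripts of the lipopolysaccharide receptor also stood in different proportions. Tlr4 stood at 0.135, 0.148 and 0.121 of the level of Cd14 with IFN-α and at 0.00515, 0.00670 and 0.00623 with R848, a 22.4-fold difference without overlap. With both agents the ratio was 0.00742, 0.00909 and 0.00821. Tlr4 relative to Ly96 was 2.37, 3.11 and 2.55 with IFN-α, 0.908, 0.848 and 0.600 with R848 and 0.693, 1.87 and 0.947 with both. The last group overlapped that with R848 (exact permutation p = 0.4) and not that with IFN-α (exact permutation p = 0.1). Cd180 relative to Ly86 was 0.432, 0.426 and 0.430 with R848, 0.672, 0.764 and 0.705 with IFN-α and 0.918, 0.951 and 0.975 with both agents, so that the combined group was highest although neither gene was highest there.

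**Figure D4:**
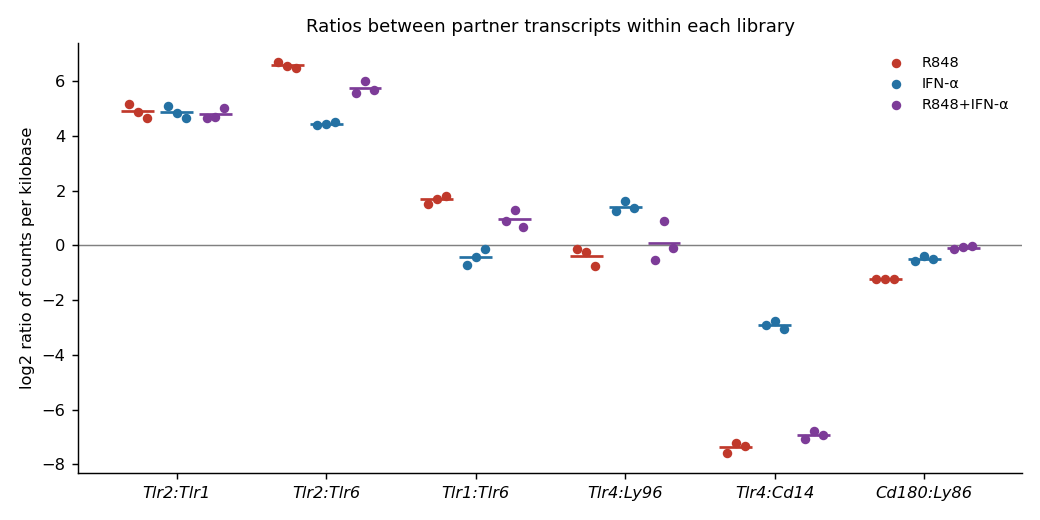
Log2 ratios of counts per kilobase between partner transcripts (vertical axis) within each of 9 libraries, coloured by treatment, with lines at group means. The group means of the Tlr2 to Tlr1 ratio lie at 4.8 to 4.9, with libraries from 4.66 to 5.17. The Tlr1 to Tlr6 ratio is below 0 with IFN-α and above 0 in all libraries with R848.

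Levels of different genes were compared as CPM per kilobase of the longest protein-coding GENCODE transcript, since no label or file header names the gene models that were counted. With R848 the order was Cd14 (2121 ± 124, mean ± SD, n = 3), Tlr2 (479 ± 48.1), Cd180 (26.7 ± 1.25), Ly96 (16.8 ± 4.42), Tlr1 (16.0 ± 1.30), Tlr4 (12.7 ± 0.987) and Tlr6 (4.98 ± 0.119). Ly96 and Tlr1 overlapped in that order and other neighbours did not. With IFN-α Cd180 (246 ± 13.4) and Cd14 (229 ± 14.1) overlapped at the top, followed by Tlr2 (116 ± 4.64), Tlr4 (30.7 ± 1.27), Ly96 (11.6 ± 1.28), Tlr6 (5.29 ± 0.116) and Tlr1 (4.00 ± 0.768). Cd180 thus stood below Cd14 and Tlr2 with R848 and beside Cd14 at the top with IFN-α, and Tlr1 was the lowest of the 7 with IFN-α alone. With both agents the order was Cd14 (1680.1 ± 115), Tlr2 (418 ± 24.7), Cd180 (121 ± 11.7), Tlr1 (15.1 ± 2.32), Ly96 (13.8 ± 5.79), Tlr4 (13.8 ± 0.590) and Tlr6 (7.85 ± 1.63), where Tlr1, Ly96 and Tlr4 overlapped.

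The genes whose log2 CPM followed each member most closely over the 9 libraries were named from 5579 genes with a mean of at least 20 CPM. The members themselves were left out of that search. These correlations describe libraries that fall into 3 treatment groups, and carry no test. Nearest to Cd14 were Tnfaip2 (Pearson r = 0.999), Cxcl2 and Ptges (both 0.999), and nearest to Tlr2 were Tnfrsf1b, Ptges (both 0.997) and Ehd1 (0.996). Among the members, Cd14 followed Tlr2 more closely than any of these genes did (0.998). Nearest to Tlr1 were Ube2f (0.993), Cd44 (0.992) and Olr1 (0.991). Tlr4 was followed by Oxct1, Gcnt1 (both 0.996) and Galk2 (0.993), and Cd180 by Rufy3 (0.998), Pfkfb3 (0.997) and Rsrp1 (0.996). The nearest genes to Tlr6 were Dner (0.962), Sap30 (0.942) and Cdh5 (0.936), and those to Ly96 were Rbbp5 (0.959), Zfp46 (0.908) and Eri3 (0.893).

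The remaining genes of the pathway were read from 5 lists, counted by the same test. Of 8 other Toll-like receptors 5 were tested, Tlr5, Tlr11 and Tlr12 having too few counts. R848 libraries had lower levels of all 5 than IFN-α libraries (median log2 fold change -2.44), so these endosomal receptors shared the direction of Tlr4 and Cd180. Over all genes, 18.4% were called higher and 19.0% lower in that comparison. Tlr3, a sensor of double-stranded RNA, went from 374 ± 35.3 CPM with IFN-α to 16.9 ± 1.99 CPM with R848, and Tlr9, a sensor of unmethylated DNA, from 29.7 ± 4.89 to 1.79 ± 0.222 CPM. When IFN-α was added to R848, 4 rose and 1 fell (median 2.46), beside 19.2% and 16.7% of all genes. When R848 was added to IFN-α, 1 rose and 3 fell (median -0.94), beside 18.5% and 14.7%. The one that rose was Tlr3 (0.39, adjusted p = 0.00121), a call that ended with library totals alone (0.075, adjusted p = 0.679).

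Among accessory and cooperating surface receptors, R848 libraries exceeded IFN-α libraries for 3 of 9 and fell short of them for 2 (median 0.25). The shares over all genes were 18.4% and 19.0%. Marco, a scavenger receptor, was at 1049 ± 13.1 CPM with R848, 135 ± 46.1 CPM with IFN-α and 439 ± 2.80 CPM with both. Lbp, which encodes the plasma protein that transfers lipopolysaccharide to CD14, was at 42.9 ± 4.20, 26.9 ± 1.46 and 62.1 ± 4.58 CPM. IFN-α added to R848 raised 3 and lowered 2 of the 9 (median -0.023), beside 19.2% and 16.7% of all genes. Adding R848 to IFN-α raised 4 and lowered 2 (median 0.40), beside 18.5% and 14.7%. The rise of Lbp over R848 did not pass with library totals alone (0.13, adjusted p = 0.464).

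Chaperones and trafficking factors of Toll-like receptors showed 2 of 8 higher and 3 lower in R848 than in IFN-α libraries (median -0.15). The shares over all genes were 18.4% and 19.0%. Cnpy3, a co-chaperone needed for surface Toll-like receptors, was 2.09-fold lower with R848 (-1.06 ± 0.13, adjusted p = 7.32e-08) and 2.33-fold lower with both agents than with IFN-α (-1.22 ± 0.13, adjusted p = 1.32e-08). Rab10, a small GTPase of receptor transport, was 2.06-fold higher with R848 (1.04 ± 0.10, adjusted p = 5.47e-10). IFN-α added to R848 raised 2 and lowered 1 of 8 (median 0.017), near the 19.2% and 16.7% of all genes. Adding R848 to IFN-α raised 3 and lowered 2 (median -0.13), beside 18.5% and 14.7%.

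Adaptors and proximal kinases included 4 of 11 tested that were higher and 1 lower in R848 than in IFN-α libraries (median 0.19). The shares over all genes were 18.4% and 19.0%. Tirap, the bridging adaptor of TLR2 and TLR4, was at 20.5 ± 2.01 CPM with R848, 10.6 ± 2.10 with IFN-α and 13.2 ± 4.87 with both. Ticam2, the bridging adaptor of TLR4 in its TRIF pathway, was at 25.3 ± 2.60, 13.8 ± 3.44 and 12.2 ± 0.679 CPM. Both adaptors fell when IFN-α was added to R848, Tirap by 0.61 on the log2 scale (adjusted p = 0.0232) and Ticam2 by 1.06 (adjusted p = 4.84e-05). The Tirap call ended with the DESeq2 test (adjusted p = 0.0739) and without R848 replicate 3 or combined replicate 2 or 3 (adjusted p from 0.0772 to 0.139). Myd88, the adaptor shared by nearly all Toll-like receptors, was at 112 ± 4.76, 149.6 ± 9.06 and 348 ± 11.4 CPM. Adding IFN-α to R848 raised 4 and lowered 3 of 11 (median -0.050), beside 19.2% and 16.7% of all genes. Adding R848 to IFN-α raised 5 and lowered none (median 0.32), beside 18.5% and 14.7%.

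Inhibitors of Toll-like receptor signalling showed 6 of 14 higher and 4 lower in R848 than in IFN-α libraries (median 0.32). The shares over all genes were 18.4% and 19.0%. With IFN-α added to R848, 6 were higher and 3 lower (median 0.15), beside 19.2% and 16.7% of all genes. With R848 added to IFN-α, 9 were higher and 1 lower (median 0.90), beside 18.5% and 14.7%. Irak3, a kinase-like inhibitor of MyD88 signalling, was at 212 ± 5.52 CPM with R848, 5.50 ± 1.31 CPM with IFN-α and 73.1 ± 9.13 CPM with both. It rose 13.4-fold when R848 was added to IFN-α (adjusted p = 2.90e-17) and fell by 1.54 on the log2 scale when IFN-α was added to R848 (adjusted p = 2.95e-13). The largest changes with IFN-α added to R848 were rises, of Trim30a (3.93 ± 0.12, adjusted p = 2.98e-22) and Socs1 (2.54 ± 0.16, adjusted p = 4.04e-14). Tnfaip3, the ubiquitin-editing protein A20, was at 895 ± 74.1, 71.8 ± 3.25 and 1484 ± 103 CPM.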

How the data were processed

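RNA was sequenced from 9 libraries of mouse primary microglia in 3 groups of 3. The submitters' processing notes name STAR 2.5.1, Trimmomatic 0.33, CASAVA 1.8.2 and DESeq2, and the build mm10. The authors deposited raw counts per gene and library, and the reverse-strand counts were used. Forward-strand counts made up 1.09% to 1.503% of both strands. Reads in no annotated gene made up 39.3% to 44.4%, unmapped reads 19.8% to 26.3% and multi-mapping reads 7.22% to 8.51% of read pairs. Gene counts per library ranged from 2505941 to 6005578, and the ribosomal transcript Rn45s held 13.3% to 26.1% of them.

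Genes were filtered with filterByExpr (minimum count 10, minimum total 15), scaled with TMM factors and fitted to group means with edgeR 4.0.16 in R 4.3.3, with robust quasi-likelihood tests on all 11002 genes. The script was tested on simulated data. A call is a Benjamini-Hochberg adjusted p under 0.05. SE was obtained from F as |log2 fold change|/√F, and 95% intervals come from it. Alternatives were DESeq2 1.42.0, other scalings, filters, strand column, sample sets, a replicate block and left-out replicates. The labels do not say whether replicates came from separate cultures, and the p-values therefore reflect a spread that may be technical. Replicate pairs differed by more than counting noise (chi-square per degree of freedom 1.92 to 6.27, without Rn45s).

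The 7 genes, the pathway and marker lists and the tests were chosen with earlier results of these data known. The rule for named genes took all 7 members and Ly86. It took up to 4 called genes of largest change per list and comparison, of which some are given. It also took the 3 genes most correlated with each member, leaving out the members themselves and predicted or clone-named genes. A log2 offset of 1 CPM was used for those correlations.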

Additional observations from a re-analysis of the deposited data

Results flagged for a closer look

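Forward-strand counts entered the comparisons only in the alternative that counted both strands together. Summed over 9 libraries, they were above the limit of 3 counts for 5 of the 7 genes. They came to 90 for Tlr2, 73 for Cd14, 18 for Cd180, 10 for Tlr4 and 5 for Tlr1. As shares of both strands these were 0.299%, 0.111%, 0.190%, 0.465% and 0.485%, below the 1.09% to 1.503% found over all genes in each library. Ly96 and Tlr6 had 3 and 2 such counts.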

How the results depend on the processing

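Over the 16 alternatives of each comparison, 323 fold changes of the 7 genes kept their direction and their side of the threshold, 6 passed it only under an alternative, 3 no longer passed and 4 changed sign. For the other genes named by the rule 916 stayed, 26 no longer passed and 1 changed sign. Of the counts of calls, 142 were within 1.5 times the reported ones and 2 were not, both in the combined group relative to R848 with library totals alone, where 6157 genes were called instead of 3947, and 5 of the 7 genes instead of 3. These totals leave out the TMM factors, and the cause of the shift was not tested. In that comparison Tlr4 changed sign with upper-quartile factors (-0.014) and library totals (-0.28), and Arf6 with library totals (-0.11). Relative to IFN-α, Ly96 changed sign with library totals (-0.020). When single replicates were left out, the difference of Tlr1 between the combined group and R848 ran from -0.21 to 0.030. The log2 difference of the Tlr2 to Tlr1 ratio then ran from -0.10 to 0.15 for R848 relative to IFN-α, from -0.22 to 0.033 for the combined group relative to R848, and from -0.18 to 0.048 relative to IFN-α, none of them a call. With a replicate block no call of the 7 genes changed, and relative to R848 the combined group was at -0.19 for Tlr2, 0.66 for Tlr6 and -0.34 for Cd14. Over all genes tested, the deviations of same-numbered libraries were little correlated (-0.101 to 0.0587). Such correlations cannot show whether a pairing acts on a few genes, and the labels do not say whether the numbers pair cultures. Depth limits Ly96 most, with 62 to 106 counts per group.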

Other observations

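The 7 genes were also expressed as shares of their summed level per kilobase within each library, as a description without a test. Tlr2 made up 17.9 ± 0.890% (SD, n = 3) of that sum with R848, 18.02 ± 0.355% with IFN-α and 18.4 ± 0.424% with both agents, although its level differed between groups. Cd14 made up 79.2 ± 0.621%, 35.6 ± 1.36% and 74.0 ± 0.533%. Cd180 made up 1.00 ± 0.0961%, 38.3 ± 1.02% and 5.33 ± 0.169%, and Tlr4 0.478 ± 0.0633%, 4.79 ± 0.346% and 0.610 ± 0.0633%.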
